A study of Mus musculus with 22 samples.

Results

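The 8 genes described here encode the pore-forming alpha-1 subunits of the neuronal voltage-gated calcium channels: Cacna1a, Cacna1b, Cacna1c, Cacna1d, Cacna1e, Cacna1g, Cacna1h and Cacna1i. They were taken by name from the 24421 rows of each of 2 count tables, and all 8 were present and passed the expression filter. The family was selected on a result of the same data, since Cacna1e had been singled out by its rank difference in females. The rank values in females are therefore given as a description, and the counts of calls in that contrast, printed beside the share over all genes, are not read as results.

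Total RNA of the right brain hemisphere was sequenced from C57B6/J OlaHsd mice aged 10 to 12 weeks, which had been housed in groups of 4 and ranked within their cage by the tube test, in which 2 mice meet in a narrow tube and the one that backs out loses. The dominant and the submissive mouse of each cage were sampled together. There were 7 dominant and 7 submissive males from male cages 1 to 7, and 4 dominant and 4 submissive females from female cages 1 to 4, numbered here by the replicate number in the labels. Female cages 3 and 4 carry the labels Gr1 and Gr2. By the study's methods some females of middle rank were rehoused in new groups and ranked again, and the labels do not say which cages these were. The labels list no transgene and no treatment. Males and females were deposited in separate tables, so sex and table cannot be told apart. Libraries held 12403943 to 16488762 counts. In bulk tissue, fewer cells of a type and less RNA per cell cannot be told apart.

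An alpha-1 subunit forms the calcium pore and carries the voltage sensors of its channel, whereas beta, alpha-2-delta and gamma subunits modulate its trafficking and gating. The Cav1 members Cacna1c and Cacna1d form L-type channels, which couple depolarisation to gene expression and pacemaking. The Cav2 members Cacna1a (P/Q-type), Cacna1b (N-type) and Cacna1e (R-type) supply calcium for transmitter release and dendritic signalling. The Cav3 members Cacna1g, Cacna1h and Cacna1i form low-voltage-activated T-type channels, known for burst firing in the thalamus.

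The split between high- and low-voltage-activated members can be read in the coding sequence of the pore. The following 30 bases surround the selectivity codon of the pore loop in domain III, which is in capitals. They are shown 5′ to 3′ on the coding strand, from the transcript with the longest open reading frame in GENCODE M21 (GRCm38/mm10).
Cacna1c: gtctccaccttcGAAgggtggccagagctg
Cacna1d: gtctcaacttttGAGggctggcccgcgttg
Cacna1a: gtgtccacaggaGAGggctggccacaggtc
Cacna1b: gtgtccacgggaGAGgggtggcccatggtg
Cacna1e: gtctctacagggGAAggatggcctcaggtt
Cacna1g: ctggcctccaagGATggctgggttgacatc
Cacna1h: ctgtcatccaagGATggctgggtaaacatc
Cacna1i: ttggcctccaagGATggctgggtgaacatc

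In the 5 high-voltage-activated members the codon encoded glutamate, and in the 3 T-type members it encoded aspartate. Within these 30 bases Cacna1e was identical to Cacna1a at 23 positions, to Cacna1b at 20 and to Cacna1i at 13, while Cacna1g and Cacna1i shared 27. The window lay in a single exon in each T-type gene and spanned an exon junction in the other 5. The Cacna1e codon lies at chr1:154444883-154444885 on the minus strand, within the gene at chr1:154392519-154725920. The remaining genes lie at chr8:84415364-84640249 (Cacna1a), chr2:24603889-24763152 (Cacna1b), chr6:118587240-119196409 (Cacna1c), chr14:30039941-30491156 (Cacna1d), chr11:94408391-94474198 (Cacna1g), chr17:25374287-25433783 (Cacna1h) and chr15:80287238-80398292 (Cacna1i). All 8 are long transcripts, with 7929 (Cacna1a) to 14774 (Cacna1c) exon bases counted and 12697 for Cacna1e. In Cacna1d 526 of these bases, and in Cacna1h 156, are shared with another annotated gene, so those 2 counts are less certain.

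Cacna1e was the most abundant of the 8 in both sexes. Levels between genes were compared as CPM (counts scaled per 1000000 reads) per kilobase of exon (CPM per kb), after scaling all 22 libraries together with TMM. Cacna1e stood at 28.4 ± 4.53 CPM per kb (SD, n = 14) in males and 23.4 ± 2.28 (SD, n = 8) in females. Cacna1a followed with 13.96 ± 1.55 in males and 12.9 ± 1.02 in females. Cacna1b came next with 11.8 ± 1.74 and 11.2 ± 1.02 CPM per kb.

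In males the lower part of the order was Cacna1g (7.47 ± 0.746 CPM per kb), Cacna1c (7.40 ± 0.925), Cacna1i (6.61 ± 1.05), Cacna1d (6.33 ± 1.01) and Cacna1h (3.47 ± 0.460). In females Cacna1i (7.59 ± 0.637) stood above Cacna1c (6.02 ± 0.440), below Cacna1g (9.70 ± 0.704), and Cacna1d (5.07 ± 0.294) and Cacna1h (4.09 ± 0.460) came last. Neighbours in the order were compared within mice by an exact two-sided sign-flip permutation test, with Benjamini-Hochberg adjustment over the 14 neighbouring pairs of both sexes. The flips treat mice as independent, although mice of a cage were housed and sampled together. A flip of whole cages was not run, and 4 female cages are too few for it to pass. In the test by mouse all but 2 pairs differed. In males Cacna1g and Cacna1c differed by 0.02 on the log2 scale (adjusted p = 0.655, higher in 10 of 14 mice), and Cacna1i and Cacna1d by 0.06 (adjusted p = 0.4997, higher in 8 of 14 mice). The step from Cacna1e to Cacna1a was 1.01 in males and 0.85 in females on the log2 scale, with Cacna1e higher in all 14 males (exact permutation, adjusted p = 0.00057) and all 8 females (exact permutation, adjusted p = 0.0109). Levels per length depend on the exon model. With the exon length of the reference annotation Cacna1e remained first, but Cacna1b came second and the step between them was 0.30 in males and 0.10 in females on the log2 scale. In males Cacna1i then stood above Cacna1g. Cacna1g and Cacna1c then differed by 0.24 (exact permutation, adjusted p = 0.0014, higher in 13 of 14 mice). The p-values do not cover the error in length.

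Cacna1e made up 33.1% ± 1.48 (SD, n = 14) of the summed CPM per kb of the 8 genes in males and 29.2% ± 0.991 (SD, n = 8) in females. The size of this share depends on the exon model, since the reference annotation gives Cacna1e 25228 exon bases in place of 12697. In males the share did not follow rank. It ranged from 30.6% to 36.0% around a median of 33.3% in the 7 dominant mice, and from 31.6% to 35.1% around 32.9% in the 7 submissive mice. The groups overlapped, and the means differed by 0.13 percentage points (exact two-sided permutation test, p = 0.869).

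Rank was compared first in males, which played no part in the choice of the family. None of the 8 genes passed the test. Cacna1e stood at 233 to 442 CPM around a median of 366 in the dominant males, and at 305 to 443 around 366 in the submissive males. These ranges overlapped almost completely, and the lowest value belonged to the dominant male of cage 6. The log2 fold change of dominant against submissive males was -0.05 (SE 0.111, 95% interval -0.28 to 0.18, edgeR adjusted p = 1.00), and Cacna1e was higher in the dominant mouse in 4 of 7 cages.

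The other members gave log2 fold changes in males between -0.12 (Cacna1g, SE 0.0660) and -0.01 (Cacna1c, SE 0.0881). All 8 values were negative, with a median of -0.05 against a median of -0.0015 over all genes, but 5 of them (Cacna1b, Cacna1c, Cacna1d, Cacna1e and Cacna1i) were above 0 without the dominant male of cage 6. The members are long transcripts, and 764 other tested genes with at least 7929 exon bases leaned the same way. Relative to the average of all mice, their mean log2 deviation was 0.04 ± 0.115 (SD, n = 7) in dominant males. It was 0.07 ± 0.0986 (SD, n = 7) in submissive males, and the ranges overlapped. The part of transcript length in the male values was not tested. Cacna1g, a T-type gene of thalamic relay cells, had the lowest unadjusted p (0.0891, edgeR quasi-likelihood test) and was higher in the dominant mouse in 1 of 7 cages. Of all 14737 genes tested in males, 0 passed (0%), with edgeR as with DESeq2, while 194 had an unadjusted p under 0.05. None of these 194 was a member, although with the cage as a block Cacna1g and Cacna1a had an unadjusted p of 0.0131 and 0.0415 (edgeR adjusted p = 1.00 for each). Every member overlapped between ranks in males, as did all but 2 of 15233 genes (0.0131% without overlap).

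In the dominant male of cage 1 the summed level of the cerebellar granule cell markers Gabra6, Cbln3, Fat2 and Neurod1 was 19.3 CPM, against 232 to 617 CPM in the other 13 males, with none of the 4 at 0 over the males. Its Purkinje cell markers summed to 1332 CPM, against at least 2004 in the others. Without this mouse the Cacna1e fold change in males was -0.11 on the log2 scale and still did not pass (edgeR adjusted p = 1.00).

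**Figure D1:**
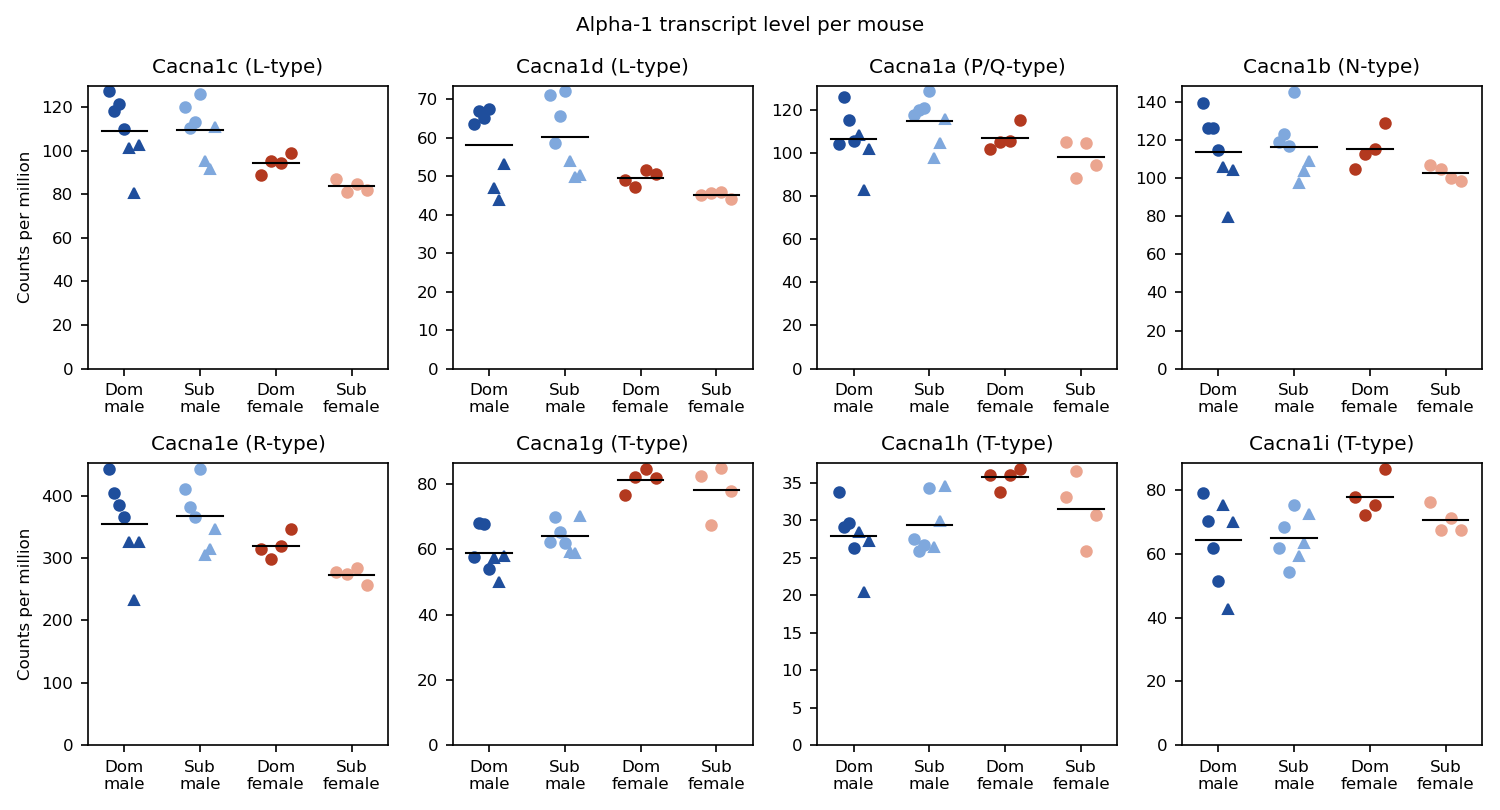
CPM of each alpha-1 gene (vertical axes, from 0) in every mouse, by sex and rank; circles are single mice, triangles are the males of cages 5 to 7, and black lines are group means. In the Cacna1e panel the dominant females (299 to 346 CPM) all lie above the submissive females (256 to 284 CPM), while the male ranks overlap.

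In females, the contrast on which Cacna1e was chosen, dominant mice had 315, 299, 319 and 346 CPM of Cacna1e in female cages 1, 2, 3 and 4. Their submissive cage mates had 278, 275, 284 and 256 CPM. The 2 groups did not overlap, and the difference was largest in female cage 4. The fitted log2 fold change was 0.22 (SE 0.0399). It was 0.15 within female cages 1 and 2 and 0.28 within female cages 3 and 4.

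The L-type genes had a like arrangement, with a smaller difference. Cacna1c stood at 88.7 to 98.8 CPM in dominant and 81.2 to 87.1 CPM in their submissive counterparts, and the fitted log2 difference was 0.16 (SE 0.0395). Cacna1d stood at 47.2 to 51.7 against 44.1 to 45.9 CPM, with 0.13 (SE 0.0434). For both genes the dominant mouse was higher in 4 of 4 cages and the groups did not overlap. With Cacna1e, 3 of 8 members had no overlap between female ranks, where 824 of 15233 genes (5.41%) had none, and nothing is read from this count.

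The remaining Cav2 genes overlapped between ranks in females. Cacna1b gave 0.16 (SE 0.0490) and Cacna1a 0.12 (SE 0.0507) on the log2 scale, each higher in the dominant mouse in 3 of 4 cages. Among the T-type genes, Cacna1h gave 0.17 (SE 0.0737) and was higher in the dominant mouse in 3 of 4 cages, and Cacna1i gave 0.13 (SE 0.0517) and was higher in 4 of 4. Cacna1g had the smallest value, 0.05 (SE 0.0556), and was higher in the dominant mouse in 2 of 4 cages. All 8 female fold changes were thus above 0, with a median of 0.15 against -0.002 over all genes, and the corresponding male values were all below 0. The values differed between pairs of cages most for Cacna1h (0.0044 within female cages 1 and 2, 0.35 within cages 3 and 4) and Cacna1b (0.035 and 0.29). Whether the rank difference itself differed between the sexes was not tested, since the female contrast served to choose the family.

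At an adjusted p under 0.05, 1 of the 8 members was called in females by edgeR, where 14 of 14865 genes (0.0942%) were called, and nothing is read from this count. DESeq2 called 78 of 5222 genes (1.49%), with Cacna1c and Cacna1e among them. With the default level of its filter, tried after the first counts had been seen, it called 65 of 6375 genes (1.02%) and, of the members, Cacna1e alone.

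Marker levels of cell types and regions by female rank are given as a description. Of 13 marker lists besides that of excitatory neurons, the dominant mouse was higher in all 4 cages for 2, in 3 cages for 4, in 2 cages for 3, in 1 cage for 4 and in none for 0, and 1 list had no overlap between ranks. The thalamic markers Prkcd, Tcf7l2, Rora and Plekhg1 summed to 465 to 505 CPM in dominant and 444 to 478 CPM in submissive females, and were higher in the dominant mouse in 4 of 4 cages. The excitatory neuron markers Slc17a7, Camk2a and Neurod6 summed to 1066 to 1262 against 1028 to 1089 CPM, also overlapping, and were higher in 3 of 4 cages. The blood markers summed to 3.86 to 5.99 against 2.56 to 3.78 CPM without overlap, and 2 of the 3 blood genes (Hba-a1 and Hba-a2) were at 0 in all mice, which left Alas2 alone. The part of these markers in the female values was not tested.

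Long transcripts as a class stood higher in the dominant than in the submissive females. The mean log2 deviation of 764 other tested genes with at least 7929 exon bases, relative to the average of all 22 mice, came to -0.07 ± 0.0272 (SD, n = 4) for the dominant females and to -0.13 ± 0.0115 (SD, n = 4) for the submissive ones, without overlap. With the trend of counts on exon length removed from each library, the Cacna1e fold change in females was 0.15 (SE 0.0351) on the log2 scale and those of the other members lay between 0.00 and 0.12, and no member was called, where 0 of 14865 genes were called. The part of transcript length in the female values was not tested.

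**Figure D2:**
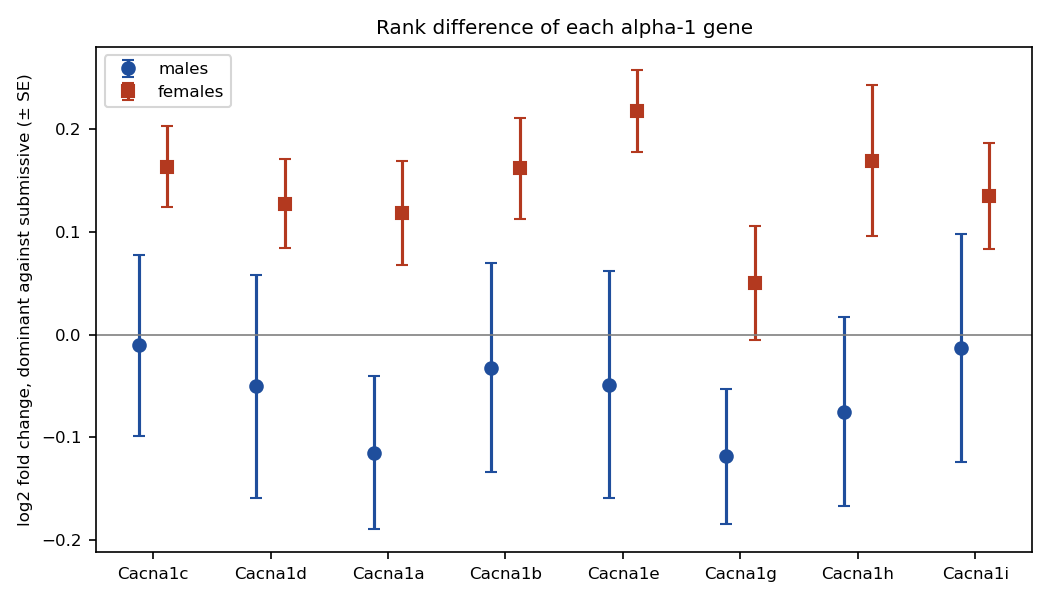
Log2 fold change of dominant against submissive mice (vertical axis, with SE bars) for each alpha-1 gene, in 14 males (circles) and 8 females (squares). All 8 male values lie between -0.12 and -0.01 and all 8 female values between 0.05 and 0.22, the last being Cacna1e, which was chosen on the female contrast.

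Cages differed in males. Both mice of a cage shared housing and were killed together, and the cage term was tested over 7 cages with rank in the model. The library numbers in the labels also run cage by cage, so housing, joint sampling and library order cannot be told apart. Cacna1c (edgeR adjusted p = 0.0154), Cacna1d (adjusted p = 0.0057) and Cacna1e (adjusted p = 0.0211) passed, 3 of 8 members, where 868 of 14737 genes (5.89%) passed. The other 5 did not, with an adjusted p of 0.0722 for Cacna1b, 0.0878 for Cacna1g, 0.145 for Cacna1a, 0.521 for Cacna1i and 0.753 for Cacna1h. DESeq2 added Cacna1b to the 3, and called 977 of 9658 genes (10.1%).

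The mean Cacna1e level of a cage was 427 CPM in male cage 1, 393 in cage 2, 375 in cage 3 and 404 in cage 4. It was 315 in cage 5, 274 in cage 6 and 336 in cage 7. Every male of cages 1 to 4 (366 to 443 CPM) was above every male of cages 5 to 7 (233 to 346 CPM), and the highest cage mean was 1.56 times the lowest. The labels mark no break between cages 4 and 5. The place of this split is therefore not given by the design, and the separation at it is a description.

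Cacna1d was split in the same place, with 58.6 to 72.1 CPM in the males of the first 4 cages and 43.9 to 54.0 CPM in the last 3. Cacna1b, the N-type gene, had 115 to 145 CPM in the first 4 cages and 79.6 to 109 CPM in the last 3, also without overlap. For Cacna1c the ranges were 110.1 to 127 and 80.5 to 111 CPM, which overlapped in their ends. The T-type genes overlapped broadly, as Cacna1h did with 25.9 to 34.3 against 20.5 to 34.5 CPM. Over all genes, 8.48% had no overlap between these 2 sets of cages.

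The other long genes were split as well. Their mean log2 deviation was 0.0868 to 0.179 in the males of cages 1 to 4 and -0.144 to 0.00635 in those of cages 5 to 7. With the exon length trend removed, 0 of the 8 members passed across male cages, with an adjusted p of 0.0633 for Cacna1d, 0.249 for Cacna1e and 0.346 for Cacna1c, while 557 genes still passed. Without cage 6 the call of Cacna1c was lost (2 members passed), where 375 of all genes (2.54%) passed. Without cage 1 the number was 5, with Cacna1b and Cacna1g added, where 1841 of all genes (12.5%) passed.

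**Figure D3:**
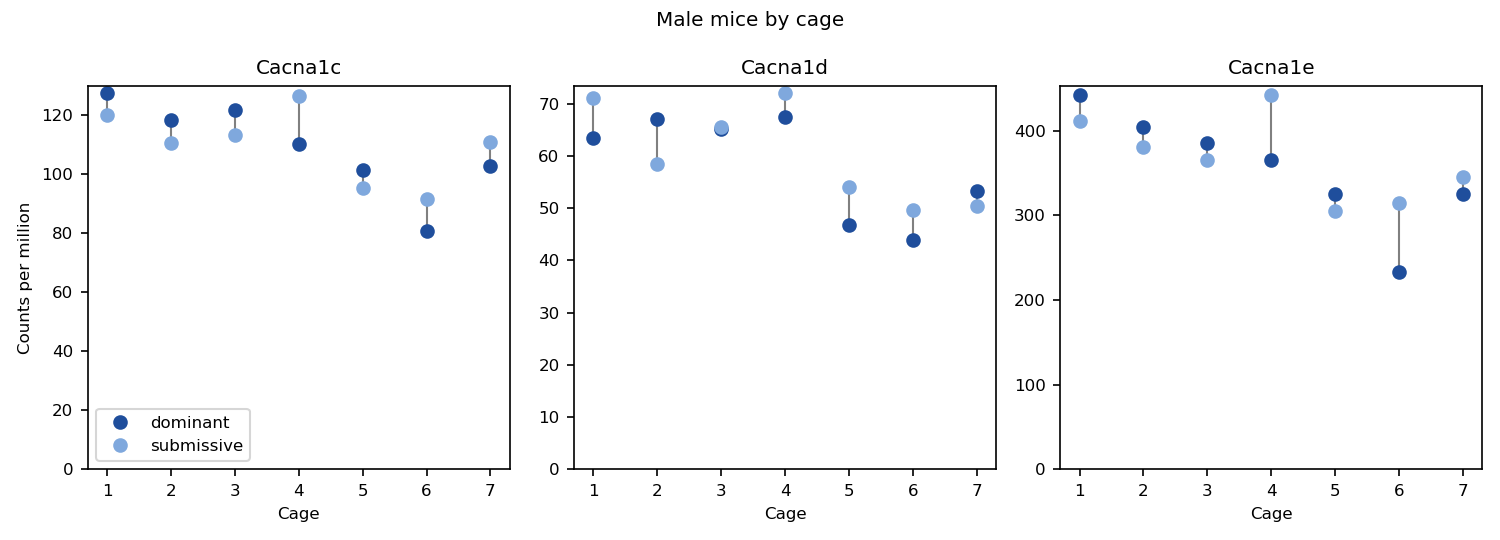
CPM (vertical axes, from 0) of Cacna1c, Cacna1d and Cacna1e in the dominant (dark) and submissive (light) male of each of 7 cages (horizontal axes), joined by a line. For Cacna1e the males of cages 1 to 4 lie at 366 to 443 CPM and those of cages 5 to 7 at 233 to 346 CPM.

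In females no member passed across the 4 cages (edgeR adjusted p = 0.999 for each), where 11 of 14865 genes passed (0.074%) and 759 had an unadjusted p under 0.05. None of the 8 members was among these 759, and DESeq2 called none of them either. The Cacna1e mean of a cage lay between 287 and 302 CPM.

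Between the female and the male table the family did not move one way. The L-type genes and Cacna1e were lower in females and 2 T-type genes were higher. Cacna1g had 67.3 to 84.9 CPM around a median of 82.0 in the 8 females, and 50.0 to 70.2 CPM around 60.5 in the 14 males, with a log2 fold change of 0.38 (SE 0.0509, edgeR adjusted p = 2.1e-06). Only the ends of these ranges overlapped. Cacna1h gave 0.23 (SE 0.0707, edgeR adjusted p = 0.0116), with 25.9 to 36.9 CPM in females and 20.5 to 34.5 CPM in males. Cacna1i, at 67.5 to 86.6 against 42.8 to 79.3 CPM, gave 0.20 (SE 0.0794) and did not pass (edgeR adjusted p = 0.0533).

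Cacna1d was lower in females by the largest amount. It had 44.1 to 51.7 CPM around a median of 46.6 in females and 43.9 to 72.1 CPM around 61.1 in males, a log2 fold change of -0.32 (SE 0.0776, edgeR adjusted p = 0.00198). Cacna1c gave -0.30 (SE 0.0634, edgeR adjusted p = 0.000566) and Cacna1e -0.29 (SE 0.0797, edgeR adjusted p = 0.00623). Cacna1e had 256 to 346 CPM around a median of 292 in females and 233 to 443 CPM around 366 in males. The other Cav2 genes did not pass, with -0.11 (SE 0.0564) for Cacna1a and -0.08 (SE 0.0740) for Cacna1b. In all, 5 of 8 members passed, against 5512 of 15233 genes (36.2%). Of these, 2 members were higher in females, as were 18.4% of all genes, and 3 were higher in males, as were 17.8%.

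The male cages bear on this comparison. The fit between the tables counted mice as independent, with no cage term. Its SE and adjusted p-values may therefore be too small for genes that differ between cages, as Cacna1c, Cacna1d and Cacna1e did in males. The females lay below every male of cages 1 to 4 for Cacna1c, Cacna1d and Cacna1e, 3 of 8 members, where 16.4% of all genes had no overlap in either direction, and overlapped the males of cages 5 to 7 for all 8 genes, where 10.2% of all genes had no overlap. The other long genes had a mean log2 deviation of -0.10 ± 0.0390 (SD, n = 8) in females and 0.06 ± 0.105 (SD, n = 14) in males. The neuronal markers Snap25, Syt1, Rbfox3 and Map2 summed to 4536 to 4814 CPM in females and 3937 to 4501 CPM in males, without overlap, and their part in these differences was not tested. With the exon length trend removed, Cacna1c (-0.08, edgeR adjusted p = 0.0756) and Cacna1e (-0.09, edgeR adjusted p = 0.183) no longer passed and Cacna1d did (-0.17, edgeR adjusted p = 0.0114). All 3 T-type genes then passed, with 0.50 for Cacna1g, 0.35 for Cacna1h and 0.35 for Cacna1i, where 5336 of 15233 genes (35.0%) passed. The T-type genes together made up 25.8% to 27.8% of the summed CPM per kb in females and 18.0% to 23.4% in males. The size of this share depends on the exon model as well.

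**Figure D4:**
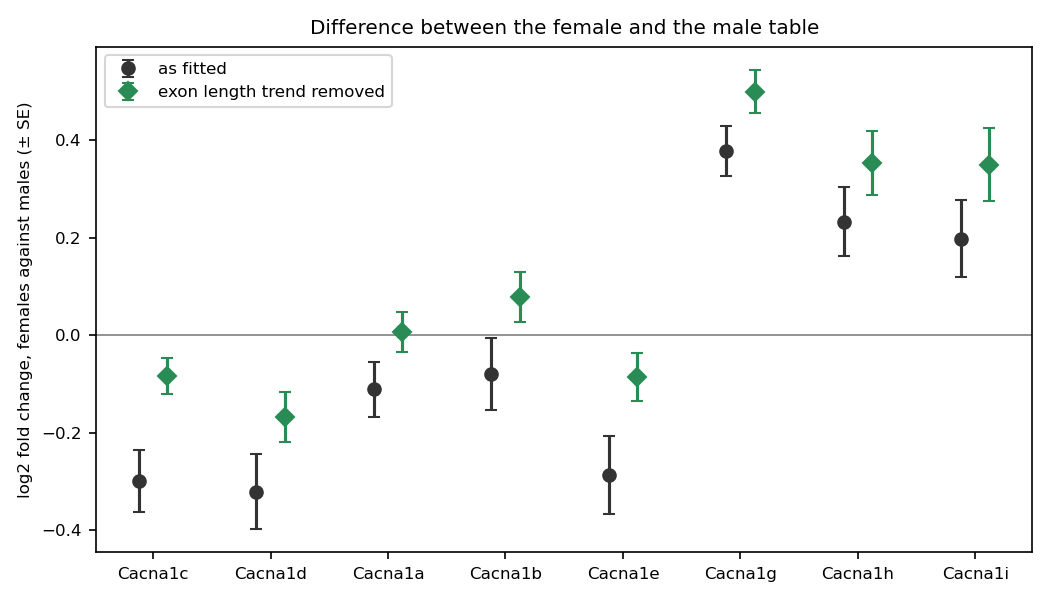
Log2 fold change of females against males (vertical axis, with SE bars) for each alpha-1 gene, as fitted (circles) and with the exon length trend of each library removed (diamonds). The 3 T-type genes at the right are above 0 in both fits (0.20 to 0.38 as fitted, 0.35 to 0.50 without the trend), while Cacna1c and Cacna1e move from -0.30 and -0.29 to -0.08 and -0.09.

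The likeness of the genes was measured by Pearson's r of log2 CPM over the 22 mice, after the mean of each sex and rank group had been subtracted, and is a description over mice of which pairs share a cage. Cacna1e was most like Herc2 (r = 0.975), Trrap (0.973), Kmt2a (0.971), Prrc2c (0.968) and Epha6 (0.967), which have 15346, 12476, 16439, 10444 and 4213 exon bases. Among the members, Cacna1b (0.959) and Cacna1c (0.954) stood 8th and 11th of 15232 genes in likeness to Cacna1e. Cacna1g was the least like it (0.479, place 2599).

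Cacna1a was most like Kcnc1 (0.937) and Auts2 (0.925), Kcnc1 being a potassium channel gene of fast-spiking neurons. Slc43a2 was among the genes most like Cacna1g (0.820). Cacna1i was most like Atp2b2 (0.957), a plasma membrane calcium pump. Cacna1h was most like Pcdh10 (0.868) and Dlgap2 (0.864), Cacna1d like Anapc1 (0.955) and Usp24 (0.954), Cacna1b like Arfgef3 (0.971) and Cacna1e, and Cacna1c like Herc2 (0.957) and Cacna1e.

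**Figure D5:**
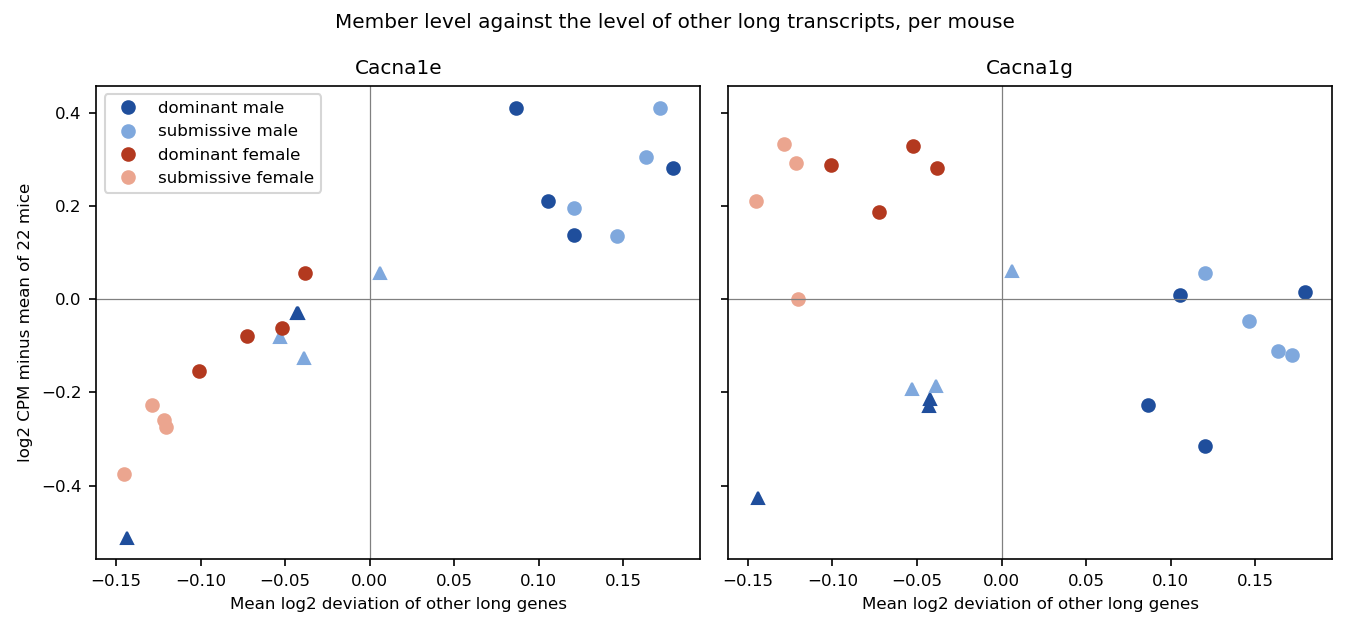
Log2 CPM of Cacna1e (left) and Cacna1g (right) in each mouse, as the difference from the mean of 22 mice (vertical axis), against the mean log2 deviation of 764 other genes with at least 7929 exon bases (horizontal axis); triangles are the males of cages 5 to 7. Dominant and submissive females lie apart on the horizontal axis (means -0.07 and -0.13), and the males of cages 1 to 4 lie at its right end (0.0868 to 0.179).

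Each member was also set against the mean log2 CPM of marker genes of 5 brain regions or cell types. The males fall into separate sets for Cacna1b, Cacna1d and Cacna1e, so the relations were read within male cages 1 to 4 (n = 8), male cages 5 to 7 (n = 6) and females (n = 8). After adjustment over the 120 relations within these 3 sets none passed (exact permutation test, lowest adjusted p = 0.167 for Pearson's r). With 6 mice the smallest p that this test can give is 0.00139, which adjusts to 0.167 for a relation standing alone, so not passing says little for male cages 5 to 7.

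The other calcium channel genes serve as the background of the pathway. Of the alpha-1 genes outside the family described here, Cacna1s of skeletal muscle had 5 to 22 counts per library, and Cacna1f of the retina had 0 to 6 and was not tested. Cacnb4 was the highest beta gene (58.8 CPM per kb on average) and Cacnb1 the lowest (12.1). Cacna2d1 was the highest alpha-2-delta gene (48.6 CPM per kb) and Cacna2d4 the lowest (0.587). Among the gamma genes Cacng7 was the highest (26.1 CPM per kb) and Cacng1 the lowest (0.0953).

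None of the 15 of these 18 genes that were tested passed by rank in either sex or across cages in either sex. Their median log2 fold change by rank was -0.0027 in males and 0.05 in females, where the 8 members had -0.05 and 0.15. Of the 15, 4 passed between the tables. Cacng5 (log2 fold change 0.45, SE 0.0625, edgeR adjusted p = 2.9e-06), Cacng2 (0.36, SE 0.0580, edgeR adjusted p = 2.2e-05) and Cacnb3 (0.18, SE 0.0448, edgeR adjusted p = 0.00309) were higher in females, and Cacnb4 (-0.07, SE 0.0265, edgeR adjusted p = 0.04996) was lower. Cacng2 encodes stargazin, which traffics AMPA receptors, and Cacnb3 and Cacnb4 encode cytoplasmic subunits that bring alpha-1 subunits to the membrane.

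The labelled tissue was checked against its markers. No marker gene of neurons, astrocytes, oligodendrocytes or microglia was at 0 in all mice. Pituitary markers summed to 1.26 to 3.41 CPM except in the submissive female of cage 3 (22.4 CPM). No 2 libraries of a group agreed within sampling noise, the lowest mean chi-square per gene being 1.77.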

How the data were processed

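The authors trimmed the single-end reads (85 bases) of rRNA-depleted, stranded libraries. Reads were aligned to mm10 by STAR 2.6.0a, and the whole-number counts per gene that they deposited came from featureCounts 1.6.2 (FastQC 0.11.8 and cutadapt 1.15 upstream). The strand setting of the counting is not given in the sources used here. Counts were tested with edgeR 4.0.16 (quasi-likelihood, TMM, filterByExpr with a count minimum of 10, Benjamini-Hochberg over all genes tested, threshold 0.05) in R 4.3.3, for rank and cage within each sex and for females against males with a mean per group. Printed CPM were scaled over all 22 samples. Permutation tests used scipy 1.17.1. The edgeR fits were tested on simulated data, in which the fit across male cages made a larger share of false calls, and found fewer small changes, than the rank fits.

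Alternatives were DESeq2 1.42.0, its size factors, no filter, removal of a loess trend on exon length, replicate blocks, subsets and leaving out mice. DESeq2 adjusts its own filter at a chosen level. This was set at 0.05, and its default of 0.1 was tried after the first counts had been seen.

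Same-numbered mice share a cage but are different animals. The mean correlation of their deviations was 0.157 in males (lowest -0.0259) and 0.0211 in females (lowest -0.0222). The members and lists were chosen with earlier results of these data known. All 8 members are named, as are the other channel genes that passed or were highest or lowest in their class, and the genes most like each member. Some results under this rule are not reported here, and the excitatory marker list was read over 3 of its genes, a choice made after the data had been seen. P-values measure the spread between mice, which for the cage tests and the blocked fits is the spread within cages. Tests without a cage term count the mice of a cage as independent.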

Additional observations from a re-analysis of the deposited data

How the results depend on the processing

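By rank in males no member passed in any alternative, and the exact test of the Cacna1e share did not pass in any. By rank in females the count of members called was 2 with DESeq2 and 1 with its default filter level, which was chosen after seeing the data. It was 0 with the exon length trend removed, alone (0 of 14865 genes called) or with the block (8 called), 0 with all 22 samples in one fit (0 of 15233 called), 0 within replicates 1 to 2 (0.0335% of all genes called) and 2 within replicates 3 to 4 (0.804%). Leaving out single females gave 0 to 1, and Cacna1e lost its call without any 1 of 6 of the 8, where 0 to 7 genes were called in all, against 27 and 77 in the other 2. Its fold change then ranged from 0.18 to 0.25. Across male cages the count was 0 with the trend removed (3.78% of all genes called) and 2 to 5 without single cages (2.54% to 12.5%). Between the tables it was 4 to 6 without single mice (32.0% to 37.9% of all genes called). Cacna1h was not called without the submissive female of cage 2.

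The fit with the replicate block kept the count of members at 0 in males and 1 in females, with 36 genes called in females in place of 14. The share of Cacna1e in males then gave the same difference of 0.13 percentage points (exact permutation within cages, p = 0.703). Without single males the share difference ranged from -0.34 to 0.56 points. The male fold changes then ranged from -0.11 to 0.032 for Cacna1e, -0.087 to 0.040 for Cacna1b, -0.052 to 0.052 for Cacna1c, -0.092 to 0.0086 for Cacna1d and -0.069 to 0.067 for Cacna1i, each turning above 0 without the dominant male of cage 6. Leaving out other males turned some signs too. Cacna1b was 0.028 without the submissive male of cage 4, and Cacna1c was 0.0049 without the dominant male of cage 5. In females Cacna1g ranged from -0.016 to 0.093.

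In the other settings the sign turned in values that did not pass. By rank in males these were Cacna1c (0.033 with the trend removed, 0.031 with the block and the trend removed, 0.023 within replicates 1 to 4), Cacna1i (0.017, 0.0066 and 0.017 in the same settings), and Cacna1b (0.0070) and Cacna1h (0.058) within replicates 1 to 4. Between the tables these were Cacna1a (0.0068) and Cacna1b (0.079) with the trend removed.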
